A study of Saccharomyces cerevisiae with 6 samples.

Results

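The genes described here are the 6 budding yeast genes for the enzymes of the non-oxidative branch of the pentose phosphate pathway, namely the transketolase genes TKL1 (YPR074C) and TKL2 (YBR117C), the transaldolase genes TAL1 (YLR354C) and NQM1 (YGR043C), the ribose 5-phosphate isomerase gene RKI1 (YOR095C) and the ribulose 5-phosphate epimerase gene RPE1 (YJL121C). They were taken by symbol from the platform annotation, and all 6 of the 6 were found among the 5449 yeast genes measured, each with 1 probe set. The RNA came from Saccharomyces cerevisiae in batch culture on ethanol plus glycerol. By their labels, 3 samples were wild type (WT) and 3 were a gpm1 mutant, the series title calling it a knock-out of phosphoglycerate mutase. The labels give no strain background, no allele or construct of the knock-out and no sampling time. Every sample had its own one-colour Affymetrix array, and values are log2 probe set values.

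The pentose phosphate pathway has an oxidative branch, which makes NADPH and ribulose 5-phosphate from glucose 6-phosphate, and a non-oxidative branch, whose reversible reactions shuffle carbon between pentose phosphates and the glycolytic sugars fructose 6-phosphate and glyceraldehyde 3-phosphate. Cells growing without sugar can use the reversible branch to make ribose 5-phosphate for nucleotides and erythrose 4-phosphate for aromatic amino acids. In yeast, TKL1 and TAL1 encode the major transketolase and transaldolase, and TKL2 and NQM1 encode their minor paralogues. RKI1 and RPE1 have no paralogue of that kind.

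Several facts of the whole series bear on every value below. GPM1 (YKL152C) ran against the labels, with 5.16, 5.12 and 5.17 on the arrays labelled WT and 12.51, 12.48 and 11.82 on those labelled gpm1, so groups are named by their labels and each direction is that of the labels, not of the genotype. If the labels were exchanged, every sign below would turn. Labelled gpm1 replicate 3 stood nearer to the arrays labelled WT than the other two, since 52 genes in it differed by 2-fold or more from the labelled WT mean, against 626 in replicate 1 and 380 in replicate 2. The poly-A control transcripts, which are added before labelling, averaged 5.92 to 6.22 on the arrays labelled WT and 7.14, 6.67 and 6.21 on labelled gpm1 replicates 1, 2 and 3. The typical gene had an SD of 0.048 within labelled WT and 0.25 within labelled gpm1 (medians over genes). Separate cultures for the arrays of a group are not stated in the labels, and the p-values then cover the spread of these samples alone, which can be technical. In RNA from whole cultures, fewer cells with a transcript and less transcript per cell cannot be told apart.

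The minor isoenzyme genes TKL2 and NQM1 were far lower in the arrays labelled gpm1, while none of the other 4 genes passed the test. NQM1 was lower by 5.18-fold. TKL2 was lower by 6.06-fold as measured, and by 5.52-fold when its 2 arrays under the background percentile are set to that percentile. With limma across all genes and a Benjamini-Hochberg adjusted p threshold of 0.05, 2 of the 6 members were lower and 0 were higher. Over all 5449 genes 0.807% were called, of which 0.789% were lower and 0.0184%, which is GPM1 alone, higher. With labelled gpm1 replicate 3 left out, 2 members were lower (TKL2 and NQM1) and 2 were higher (TKL1 and RPE1), in a fit that called 41.1% of all genes, 19.5% lower and 21.6% higher. At an unadjusted p under 0.05 there were 3 of the 6 members, TKL1 being the third, and 22.4% of all genes. The median log2 difference of the 6 genes was -0.069 and that of all genes was 0.019, so the middle of the list lay close to the middle of all genes. The labelled groups did not overlap for 4 of the 6 members, 2 lower and 2 higher, where the share over all genes was 34.6%, with 15.4% lower and 19.2% higher.

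**Figure D1:**
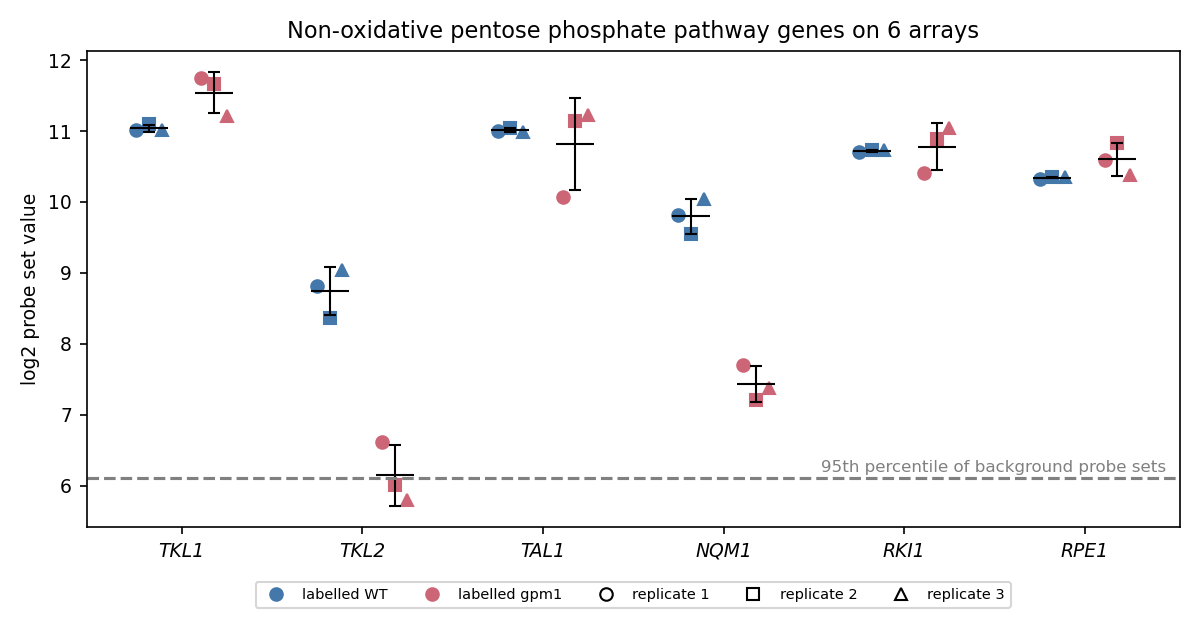
Log2 probe set value of each member on each array, with blue for labelled WT, red for labelled gpm1, marker shapes for replicate numbers, and bars for the mean ± SD (n = 3). TKL2 and NQM1 sit lower on all 3 arrays labelled gpm1, and 2 of those arrays have TKL2 at or under the dashed line, the 95th percentile of background probe sets.

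The transketolases move 2-carbon units between sugar phosphates, and TKL1 carries most of that activity in growing yeast. TKL1 read 11.01, 11.09 and 11.01 on the arrays labelled WT and 11.75, 11.66 and 11.21 on those labelled gpm1. All 3 arrays labelled gpm1 lay above all 3 labelled WT, with replicate 3 the nearest to them. The mean was 11.04 ± 0.047 in labelled WT and 11.54 ± 0.29 in labelled gpm1 (SD, n = 3), a log2 difference of 0.50 (SE 0.15, 95% interval 0.12 to 0.87, limma adjusted p = 0.196), which did not pass. The difference was 0.66 and passed without labelled gpm1 replicate 3 (limma adjusted p = 0.0024), in the fit that called 21.6% of all genes higher. Across the arrays labelled gpm1, TKL1 was highest in replicate 1 and lowest in replicate 3, as were the poly-A controls (7.14, 6.67 and 6.21), whose part in the result was not tested.

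TKL2 read 8.82, 8.37 and 9.04 on the arrays labelled WT and 6.62, 6.01 and 5.80 on those labelled gpm1. The gap between the groups was wide, and labelled gpm1 replicates 2 and 3 fell under 6.11, the 95th percentile of background (listed probe sets whose gene ID the S. cerevisiae gene table does not hold). The mean was 8.74 ± 0.34 in labelled WT and 6.14 ± 0.43 in labelled gpm1 (SD, n = 3), a log2 difference of -2.60 (SE 0.26, 95% interval -3.23 to -1.97, limma adjusted p = 0.015). It was the tenth lowest difference among the 5449 genes. Each array labelled gpm1 showed it, at -2.12, -2.73 and -2.94 against the labelled WT mean for replicates 1, 2 and 3. Labelled gpm1 replicate 3, the array nearest to labelled WT over all genes, was here lower than replicate 1. The order of replicates 2 and 3 rests on values under the background percentile. The call was lost without WT replicate 1, without WT replicate 3 and without gpm1 replicate 2, at limma adjusted p-values of 0.125, 0.102 and 0.108, with log2 differences of -2.56, -2.45 and -2.53. Over all the settings tried the limma adjusted p ran from 0.0025 to 0.125.

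Transaldolase moves a 3-carbon unit between sedoheptulose 7-phosphate and glyceraldehyde 3-phosphate, and TAL1 encodes the main enzyme. TAL1 read 10.998, 11.05 and 10.99 on the arrays labelled WT and 10.07, 11.14 and 11.23 on those labelled gpm1. Replicate 1 of labelled gpm1 lay below the arrays labelled WT and replicates 2 and 3 lay above them, so the groups overlapped. The mean was 11.01 ± 0.032 in labelled WT and 10.81 ± 0.65 in labelled gpm1 (SD, n = 3), a log2 difference of -0.20 (SE 0.31, 95% interval -0.94 to 0.55, limma adjusted p = 0.698). The difference turned to 0.18 without labelled gpm1 replicate 1 (limma adjusted p = 0.236), so its direction rests on that array. The poly-A controls were highest on the same array, at 7.14, and their part in the value was not tested.

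NQM1, whose name stands for non-quiescent mutant and whose protein is a close homologue of Tal1, read 9.82, 9.55 and 10.04 on the arrays labelled WT and 7.70, 7.20 and 7.38 on those labelled gpm1. The groups were well apart and all 3 arrays labelled gpm1 stayed above the background percentile of 6.11. The mean was 9.80 ± 0.25 in labelled WT and 7.43 ± 0.25 in labelled gpm1 (SD, n = 3), a log2 difference of -2.37 (SE 0.18, 95% interval -2.81 to -1.94, limma adjusted p = 0.0039). It ranked 14 from the lowest of the 5449 differences. Against the labelled WT mean the 3 arrays labelled gpm1 stood at -2.10, -2.60 and -2.42. The NQM1 call held without any 1 array and under the other settings tried, with limma adjusted p-values from 0.0015 to 0.046.

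**Figure D2:**
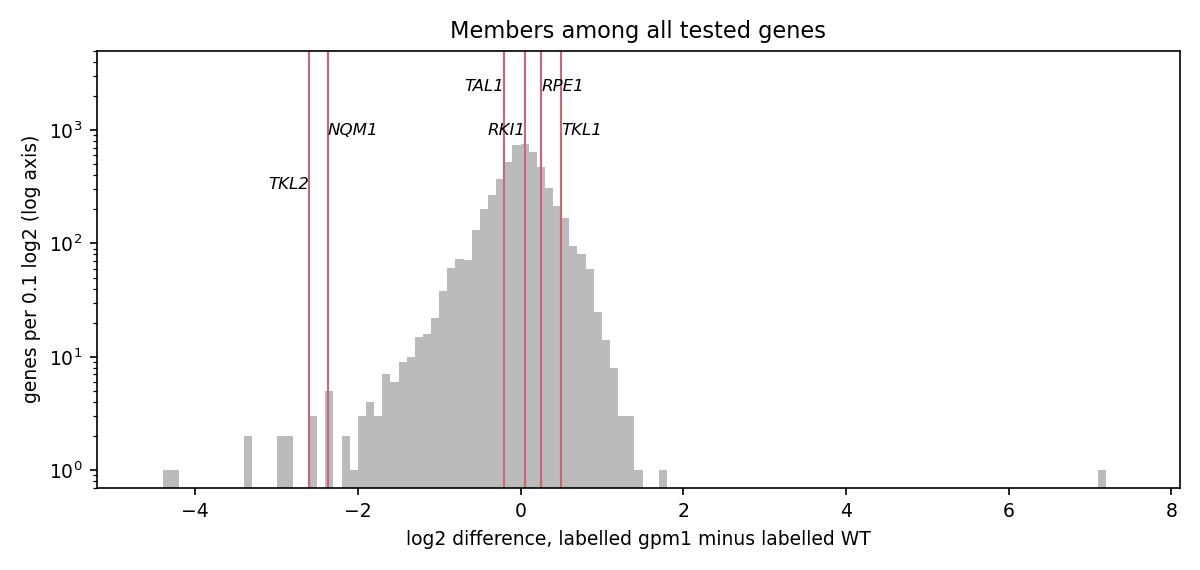
Number of genes (log axis) at each log2 difference, labelled gpm1 minus labelled WT, over the 5449 genes in steps of 0.1, with red lines at the 6 members. TKL2 at -2.60 and NQM1 at -2.37 lie in the thin lower tail, and TAL1, RKI1, RPE1 and TKL1 lie between -0.20 and 0.50 within the bulk, while the bar above 7 is GPM1.

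The question of whether the minor and major isoenzymes changed unequally was put to the ratio of each pair within an array, since levels of different probe sets cannot be set against each other. The TKL2 to TKL1 ratio, as a log2 value, was -2.19, -2.73 and -1.98 on the arrays labelled WT and -5.13, -5.65 and -5.41 on those labelled gpm1. The groups did not overlap, with 2.40 between the nearest arrays. The ratio was lower in labelled gpm1 by 8.57-fold as measured, a log2 difference of -3.10, against SDs of 0.39 in labelled WT and 0.26 in labelled gpm1 (n = 3). The p of an exact two-sided permutation test over the 6 arrays was 0.1, and no smaller value is possible with 3 arrays a group. With labelled gpm1 replicate 3 left out, the difference was -3.09. With the TKL2 values under the background percentile set to it, the ratio was 7.81-fold lower, a log2 difference of -2.97.

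For the transaldolases the NQM1 to TAL1 ratio was -1.18, -1.50 and -0.95 on the arrays labelled WT and -2.37, -3.94 and -3.85 on those labelled gpm1. The groups again did not overlap, and labelled gpm1 replicate 1 stood apart from the other two, TAL1 being low on that array. The log2 difference was -2.17, a 4.51-fold lower ratio (SD 0.28 in labelled WT and 0.88 in labelled gpm1, n = 3, exact permutation p = 0.1). It was -2.68 without labelled gpm1 replicate 1 and -1.94 without replicate 3. The 4 ratios examined here (these and a pair from each later oxidative step) had exact permutation p-values of 0.1 or more, and no adjustment over them could bring one under 0.05. Whether paralogues share signal through similar probes was not checked.

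**Figure D3:**
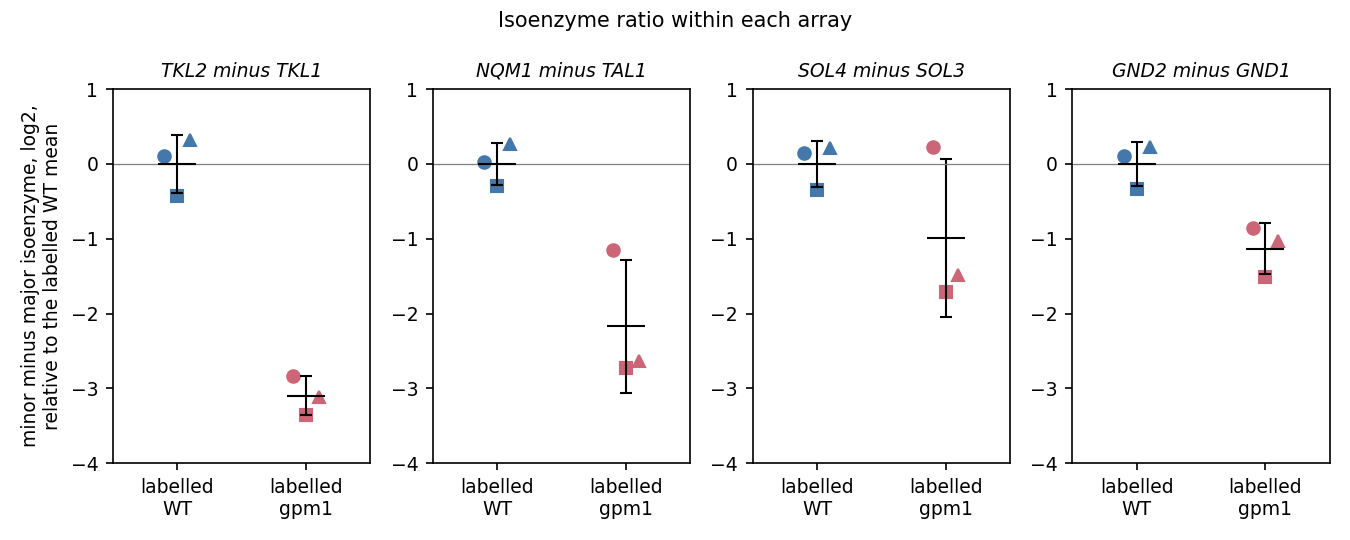
Log2 ratio of minor to major isoenzyme within each array, relative to the labelled WT mean, for both non-oxidative pairs (TKL2 with TKL1, NQM1 with TAL1) and both oxidative pairs (SOL4 with SOL3, GND2 with GND1), with the mean ± SD (n = 3). The ratio is lower on all 3 arrays labelled gpm1 in the pairs of TKL2, NQM1 and GND2, and in the SOL4 pair labelled gpm1 replicate 1 lies slightly above all 3 arrays labelled WT.

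RKI1 and RPE1 encode the enzymes that interconvert ribulose 5-phosphate with ribose 5-phosphate and with xylulose 5-phosphate, the substrates of transketolase. RKI1 read 10.70, 10.73 and 10.74 on the arrays labelled WT and 10.41, 10.89 and 11.05 on those labelled gpm1. The arrays labelled gpm1 fell on both sides of labelled WT, with replicate 1 below and replicates 2 and 3 above, as for TAL1. The log2 difference was 0.061 (SE 0.17, 95% interval -0.35 to 0.48, limma adjusted p = 0.838), and without labelled gpm1 replicate 3 it was -0.072. RPE1 read 10.33, 10.35 and 10.35 on the arrays labelled WT and 10.59, 10.83 and 10.37 on those labelled gpm1. The groups did not overlap, but replicate 3 lay only 0.031 above the labelled WT mean. The RPE1 difference was 0.26 (SE 0.13, 95% interval -0.06 to 0.57, limma adjusted p = 0.274), and it was 0.37 and passed without labelled gpm1 replicate 3 (limma adjusted p = 0.028), where 21.6% of all genes were called higher.

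The minor isoenzyme genes also varied more than other genes among the arrays labelled WT. The SD among those arrays was 0.34 for TKL2, larger than in 99.9% of the 5449 genes, and 0.25 for NQM1, larger than in 99.6%. By contrast it was 0.047 for TKL1, 0.032 for TAL1, 0.018 for RKI1 and 0.012 for RPE1, under the median of 0.048 over genes. Among the arrays labelled gpm1 the order differed. There TAL1 had the highest SD of the 6 members, 0.65, larger than in 93.6% of genes, and NQM1 at 0.25 was close to the median. In labelled WT, TKL2 and NQM1 were both lowest in replicate 2 and highest in replicate 3. The minor oxidative genes SOL4 and GND2 had that arrangement too, against 0 of the 4 major ones and 14.7% of all genes. The arrangement was read from TKL2 and NQM1 in these data, so their own match was fixed in advance. These counts are a description and no independent support. The arrangement was shared by 7 of 8 stress and stationary phase genes (HSP26, HSP30, SSA4, CTT1, DDR2, GRE1 and SIP18). The SDs of these 7 in labelled WT ran from 0.083 to 0.37. The exception was HSP12, with an SD of 0.025.

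**Figure D4:**
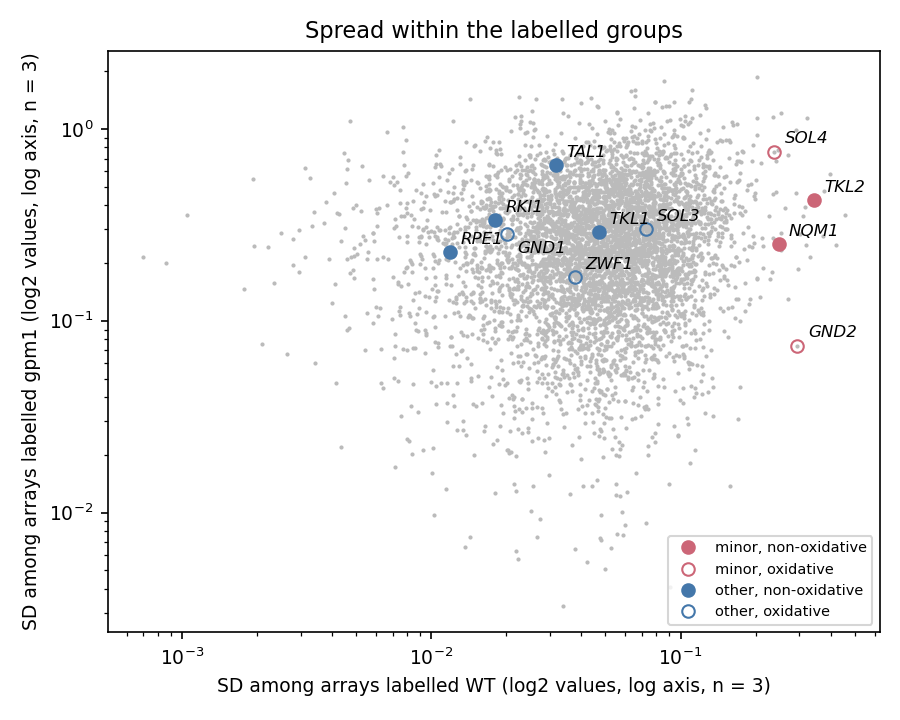
SD among the 3 arrays labelled gpm1 against SD among the 3 labelled WT, both of log2 values on log axes, for all 5449 genes (grey) and the pathway genes. The 4 minor isoenzyme genes (red) lie at the right edge with SDs among labelled WT of 0.24 to 0.34, and the major isoenzyme genes lie within the bulk of the genes at 0.020 to 0.073.

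The same 8 stress and stationary phase genes were listed as a sign of the state of the cultures. Like the other lists, they were chosen with earlier results of these data known. GRE1, SIP18 and HSP26 had the 3 lowest differences of all genes, so the count below is no independent support. Of the 8 genes, 7 were called lower in the arrays labelled gpm1, as were 0.789% of all genes. The catalase gene CTT1 did not pass (-0.98, limma adjusted p = 0.186). The 8 genes had a median log2 difference of -2.50. By array it was -2.38 in labelled gpm1 replicate 1, -2.50 in replicate 2 and -2.82 in replicate 3, where TKL2 stood at -2.12, -2.73 and -2.94. NQM1 did not have that order, standing at -2.10, -2.60 and -2.42, lowest in replicate 2. Of 5 ribosome biogenesis genes 0 passed, with a median of 0.62 and values of 0.61, 0.87 and 0.21 on the 3 arrays, where TKL1 stood at 0.71, 0.62 and 0.17. All 5 were higher without overlap of the labelled groups, as were 19.2% of all genes. Without labelled gpm1 replicate 3, 4 of the 5 were called higher, as were 21.6% of all genes. The part of either state in the members' values was not tested.

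The genes whose profiles lay closest to each member were found by the root mean square (RMS) difference over the 6 arrays, after centring every gene on its mean over the arrays labelled WT. The 3 closest to TKL2 were the stationary phase gene SPG1 (RMS 0.12), the gene SHH3 for a mitochondrial membrane protein (RMS 0.18) and the HSP70 chaperone gene SSA3 (RMS 0.19). SPG1 and SSA3 had log2 differences of -2.60 and -2.38. SHH3 lay under the background percentile on all 3 arrays labelled gpm1, and was 3.83-fold lower with those values set to the percentile. TKL2 lay under it on 2 of those arrays. All distances of SHH3 and of TKL2 therefore rest partly on background signal. NQM1 was the fourth closest to TKL2, at an RMS of 0.23. The 3 closest to NQM1 were SHH3 (RMS 0.15), the SUN family gene NCA3 (RMS 0.19) and SPG1 (RMS 0.20), and TKL2 was the sixth. TKL2 and NQM1, which encode minor enzymes of different steps, were each among the 6 genes closest to the other. The RMS includes the difference between the labelled groups, in which TKL2 ranked 10 and NQM1 ranked 14 from the lowest. Few genes lie there, so these close ranks largely restate that difference and are no separate support for a shared profile.

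For each of the other 4 members, many genes lay closer than any fellow member. The distances themselves were alike. The RMS was 0.20 for TKL1 with RPE1 and 0.26 for TAL1 with RKI1, against 0.23 for TKL2 with NQM1. At like distances, the ranks differ with the number of genes that have similar profiles. The 3 genes closest to TKL1 were the asparaginase gene ASP1 (RMS 0.024), the ribosome assembly gene EMG1 (RMS 0.033) and the RNA polymerase subunit gene RPO26 (RMS 0.035), and the closest member, RPE1, ranked 797. Those closest to TAL1 were CLU1 (RMS 0.043), the mitochondrial ribosomal protein gene MRPL4 (RMS 0.048) and the mitochondrial isoleucyl-tRNA synthetase gene ISM1 (RMS 0.060), with RKI1 at rank 424. RKI1 lay closest to COX14, BUD4 and MRPL22 (RMS from 0.035 to 0.042), and its closest member, TAL1, ranked 1906. RPE1 lay closest to HIT1, TMA108 and the cystathionine beta-synthase gene CYS4 (RMS from 0.029 to 0.033), with TKL1 at rank 1388. These distances describe 6 arrays in which replicates of labelled gpm1 differ widely, and many genes share such profiles.

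The oxidative branch was the nearest comparison within the pathway, and of its 5 genes 0 passed with limma, 1 of them having an unadjusted p under 0.05, as 22.4% of all genes had. The median log2 difference was -0.14, against 0.019 for all genes. ZWF1, for the glucose 6-phosphate dehydrogenase that opens the branch, read 9.72, 9.79 and 9.72 on the arrays labelled WT and 9.55, 9.47 and 9.79 on those labelled gpm1. The groups overlapped, and its difference was -0.14 (SE 0.11, limma adjusted p = 0.450). In the fit without labelled gpm1 replicate 3, 2 of the 5 genes were lower, GND2 at -0.91 and ZWF1 at -0.23. That fit called 19.5% of all genes lower and 21.6% higher.

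The last oxidative step, 6-phosphogluconate dehydrogenase, has a major isoenzyme gene, GND1, and a minor one, GND2. GND2 read 8.30, 7.85 and 8.40 on the arrays labelled WT and 7.31, 7.22 and 7.37 on those labelled gpm1. The groups did not overlap, and the difference of -0.88 (SE 0.16, limma adjusted p = 0.086) did not pass. GND1 read 10.15, 10.12 and 10.11 against 10.12, 10.68 and 10.35, with overlapping groups and a difference of 0.25 (SE 0.15, limma adjusted p = 0.329). The GND2 to GND1 ratio was lower in labelled gpm1 by a log2 difference of -1.13 (SD 0.29 in labelled WT and 0.34 in labelled gpm1, n = 3, exact permutation p = 0.1), with no overlap.

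The 6-phosphogluconolactonases SOL3 and SOL4 act between these steps. SOL4, the minor one, read 8.79, 8.42 and 8.86 on the arrays labelled WT and 8.85, 7.46 and 7.61 on those labelled gpm1. Replicate 1 of labelled gpm1 lay level with labelled WT and the other two lay below it, giving a difference of -0.71 (SE 0.37, limma adjusted p = 0.286). SOL3 read 9.18, 9.31 and 9.18 against 9.16, 9.71 and 9.63, a difference of 0.28 (SE 0.16, limma adjusted p = 0.319). The SOL4 to SOL3 ratio differed by -0.99 with overlapping groups (SD 0.31 in labelled WT and 1.06 in labelled gpm1, n = 3, exact permutation p = 0.4). In all 4 pairs the mean ratio of minor to major was lower in labelled gpm1, and in each pair but SOL4 with SOL3 all 3 arrays labelled gpm1 lay below all 3 labelled WT. Of all genes taken singly, 15.4% were lower without overlap of the labelled groups. No such share was computed for ratios of other gene pairs, so the count is a description only.

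**Figure D5:**
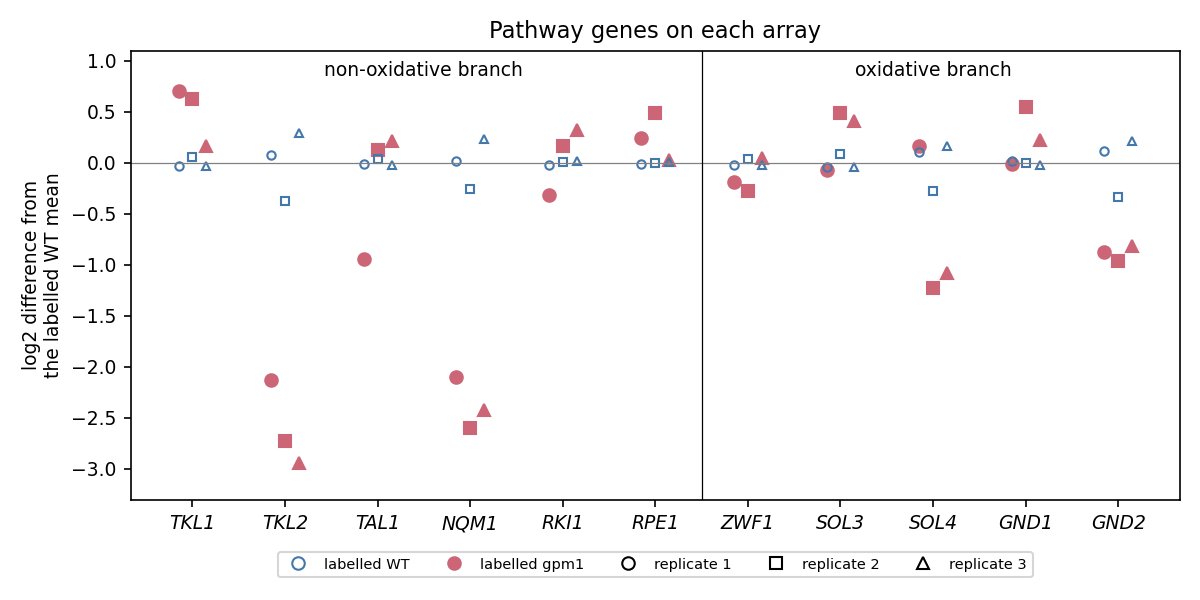
Log2 difference of each array from the labelled WT mean for the 6 non-oxidative and 5 oxidative genes, with open blue symbols for labelled WT and filled red for labelled gpm1. TKL2 and NQM1 lie between -2.10 and -2.94 on the 3 arrays labelled gpm1, GND2 lies below all 3 arrays labelled WT on each of them, and TAL1 is low on replicate 1 only.

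Side routes bring xylulose, sedoheptulose bisphosphate and other sugars to the branch, and of the 6 genes measured of 7 listed (SOR1 was not analysed here) 0 passed with limma, 3 having an unadjusted p under 0.05 against 22.4% of all genes. The median difference was -0.20. XYL2, for xylitol dehydrogenase, had the smallest p, at 8.29 ± 0.10 in labelled WT and 7.49 ± 0.33 in labelled gpm1 (SD, n = 3) and a difference of -0.80 (SE 0.18, limma adjusted p = 0.140). The fit without labelled gpm1 replicate 3 called 19.5% of all genes lower and 21.6% higher. In it, XYL2 at -0.98 and the aldose reductase gene GRE3 at -0.42 were lower. The sedoheptulose bisphosphatase gene SHB17 was higher in that fit at 0.84. It read 10.38, 9.96 and 9.46 on labelled gpm1 replicates 1, 2 and 3 against 9.34 ± 0.044 in labelled WT. GRE3 and SHB17 were named after their values were seen.

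Users of the branch's products are the phosphoribosyl pyrophosphate synthetases PRS1 to PRS5, which consume ribose 5-phosphate, and the DAHP synthases ARO3 and ARO4, which consume erythrose 4-phosphate. Of these 7 genes 0 passed with limma and 1, PRS5, had an unadjusted p under 0.05, against 22.4% of all genes, with a list median of 0.15. PRS5 was 9.50 ± 0.074 in labelled WT and 9.87 ± 0.18 in labelled gpm1 (SD, n = 3), a difference of 0.37 (SE 0.12, limma adjusted p = 0.196). Without labelled gpm1 replicate 3, PRS1 at 0.42, PRS4 at 0.41 and PRS5 at 0.47 were higher and ARO4 at -1.22 was lower, in the fit where 41.1% of all genes passed. ARO4 read 9.03, 10.05 and 10.76 on labelled gpm1 replicates 1, 2 and 3 against 10.76 ± 0.059 in labelled WT. PRS1, PRS4 and ARO4 were named after their values were seen.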

How the data were processed

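RNA of 6 yeast samples was measured on 1 Affymetrix array each. Per the submitters' processing notes, the authors used PLIER to summarise probes. Deposited values were read as log2 because they ran from 4.88 to 13.1, and folds rest on base 2, as the sources used here give no log base, offset, scaling or version. Of 10928 probe sets, 5498 had a gene ID in the R64 gene table, used for names only, and the brightest per gene left 5449 genes. Listed probe sets with other IDs (1747) served as background. Labelled gpm1 minus labelled WT was tested with limma 3.58.1 (lmFit, eBayes, two-sided, R 4.3.3) over all genes with Benjamini-Hochberg adjustment at 0.05, and ratios of paralogues with exact permutation tests. Precision is limited by 3 arrays per group. The limma test alone was tried on simulated data, with equal spread in both groups, unlike these arrays. Members and lists were chosen with earlier results of these data known. Named were all members and oxidative genes, of each other list those called and the smallest p, and the 3 nearest profiles per member. Same-numbered arrays deviated with correlations of 0.051, 0.024 and -0.13 across genes, so the numbers were not taken as pairs. Alternatives were quantile normalization, centring, offsets of 16 and 64, leaving out the dimmest 20%, averaging or testing all probe sets, a trend and robust prior, a replicate block and leaving out each array. Plots used matplotlib 3.10.9 in Python 3.11.15.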

Additional observations from a re-analysis of the deposited data

How the results depend on the processing

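The number of genes past the threshold was 44 with all arrays, between 31 and 56 under the other settings, and between 11 and 2240 with 1 array left out (2240 without labelled gpm1 replicate 3). With 1 array left out, the log2 difference ranged from -2.84 to -2.43 for TKL2, from 0.40 to 0.66 for TKL1, from 0.14 to 0.37 for RPE1, from -0.41 to 0.18 for TAL1 and from -0.072 to 0.25 for RKI1, and 0 to 2 oxidative branch genes were called. TAL1 reversed (0.18) without labelled gpm1 replicate 1, and RKI1 reversed (-0.072) without labelled gpm1 replicate 3. The TKL2 call was lost in 3 of those 6 fits and held in the other 3, so it depended on which array was left out. All 6 fits had fewer arrays to estimate the spread from. With the replicate block the count was 31, TKL2 stood at an adjusted p of 0.022 and NQM1 at 0.0075 with limma, and no member changed its call. An offset of 64 brought TKL2 to -1.86 and NQM1 to -2.01. Setting values under the background percentile to it, chosen after seeing the data, brought TKL2 to -2.47. The directions of the 4 isoenzyme ratios held in every setting run for them. Averaging probe sets and the replicate block left each ratio difference unchanged, so those settings were no check of direction. TKL2 lies near the background in the arrays labelled gpm1, which limits how low its value can go.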

Other observations

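Of 10 regulators that could bear on the pathway, among them the NADPH and pentose phosphate activator STB5, the glycolytic activators GCR1, GCR2 and RAP1 and the stress factors MSN2, MSN4, YAP1 and SKN7, 0 passed with limma over all genes and 4 had an unadjusted p under 0.05, against 22.4% of all genes. The list median was -0.11. GCR2, a coactivator of glycolytic genes, had the smallest p, at 7.58 ± 0.00615 in labelled WT and 8.14 ± 0.39 in labelled gpm1 (SD, n = 3), a log2 difference of 0.57 (SE 0.19, limma adjusted p = 0.201). It read 8.41, 8.32 and 7.70 on labelled gpm1 replicates 1, 2 and 3. Without labelled gpm1 replicate 3, GCR2 at 0.79 and the phosphatase gene PHO13 at 0.49 were higher and MSN2 at -0.50 was lower, in a fit where 41.1% of all genes passed. PHO13 and MSN2 were named after their values were seen. STB5 differed by -0.15 (limma adjusted p = 0.420), with 6.63, 6.60 and 6.69 on the arrays labelled WT and 6.47, 6.33 and 6.67 on those labelled gpm1.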
